A study of Mus musculus with 37 samples.

Results

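Vasoactive intestinal peptide (VIP) was compared with no treatment in whole jejunal organoids, the cultures of intestinal epithelium that grow from isolated crypts. The samples were those labelled whole organoid with or without VIP, 13 of the 37 libraries of the series. Libraries of the same organoid line and treatment were summed, which gave 7 of 31 samples: 3 untreated and 4 treated with VIP. The other samples were Lgr5-EGFP+ cells sorted from organoids of reporter mice, in separate experiments. The organoids came from proximal jejunum of C57Bl/6 mice, males and females of 6 to 12 weeks, and each organoid line, named by a number in the labels, was taken as 1 mouse. Both groups grew in medium with EGF, Noggin and R-spondin, established for 24 h, and the treated group then received 100 nM VIP for 72 h. Mice 1, 2 and 3 had an untreated and a VIP-treated culture, and mouse 4 had a VIP-treated culture with no untreated partner. The organoids hold epithelium without nerves, immune cells or vessels, so that only a direct action on epithelium is modelled, at 1 dose and 1 time.

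VIP is a neuropeptide released by enteric neurons next to the crypts. On epithelial cells it binds the receptor VPAC1, encoded by Vipr1, which couples through the stimulatory G protein (Gnas) to adenylyl cyclase. The cAMP formed activates protein kinase A, which opens the chloride channel CFTR and phosphorylates the transcription factor CREB. In the intestine VIP is best known for driving chloride and water secretion. The epithelium it acts on holds absorptive enterocytes and the goblet, Paneth, enteroendocrine and tuft cells of the secretory lineage, all renewed from Lgr5-positive stem cells. After injury, crypts can switch for a time to a fetal-like state marked by Ly6a (Sca-1), Clu and Anxa1, which is associated with the co-activator YAP.

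RNA was measured as unique molecular identifiers (UMIs) at the 3′ ends of transcripts, so that amplified copies of a molecule are not counted again and values do not scale with transcript length. Untreated samples held 3722716 to 5772166 UMIs and VIP-treated samples 5476614 to 6330404. All 15 markers of small intestinal epithelium on a list of label checks could be tested, and their summed level was 19047 to 20204 counts per 1000000 UMIs (CPM) in untreated and 17952 to 19005 CPM in VIP-treated samples, lower with VIP in each of the 3 paired mice. On this list Krt8, Krt18 and Vil1 rose and Fabp1 fell, and the jejunal factor Gata4 was not called (87.2, 80.8 and 90.7 CPM untreated, 90.2, 93.9, 75.5 and 79.8 CPM with VIP). Without the library described in the next paragraph 4 members of this list rose and 1 fell. Epcam, the epithelial adhesion molecule, stood at 1248, 1269 and 1362 CPM in untreated mice 1, 2 and 3 and at 1365, 1321, 1430.0 and 1424 CPM in VIP-treated mice 1 to 4. Fibroblast and muscle markers summed to 12.1 to 14.3 CPM untreated and 9.64 to 10.9 CPM with VIP, with Pdgfra, Des, Lum and Col1a1 at 0 or not in the table. Immune cell markers summed to 21.6 to 25.3 CPM and 28.3 to 39.6 CPM, with Adgre1 and Itgax at 0 or not in the table, and endothelial and neural markers to 8.06 to 18.8 CPM and 13.4 to 20.6 CPM, with Cdh5, Sox10 and Vip itself at 0 or not in the table. Of these 3 lists 1, 5 and 2 members could be tested, and none passed the threshold in edgeR, with 0 called in each list also without the library described next.

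The library labelled as the second of VIP-treated mouse 3 stood apart from its partner. Over genes with at least 20 counts in a pair, the chi-square per gene was 21.7 between both libraries of this culture and 1.15 to 3.18 between those of the other 5 cultures sequenced as a pair. Against the libraries of untreated mouse 1 the same library gave 2.75 and 2.52, and against that of untreated mouse 3 it gave 14.1. Of 129 genes that separated both other libraries of mouse 3 from mouse 4 by at least 1 on the log2 scale, 122 lay nearer to mouse 4 in this library, and of the 110 and 245 genes that separated mouse 3 from mice 1 and 2, 104 and 239 lay nearer to those mice. The X-inactivation transcript Xist stood at 754.5 CPM in it, at 344.1 and 265.7 CPM in the other libraries of mouse 3, at 536.4 and 647.1 CPM in mouse 4 and at 8.40 to 16.4 CPM in mice 1 and 2. Y-linked genes summed to 7.77 CPM in it, to 7.52 to 12.01 CPM in the other libraries of mice 3 and 4 and to 132.6 to 182.6 CPM in mice 1 and 2. How this library came to differ was not tested. It keeps its label here, every sample value of VIP-treated mouse 3 includes it unless the first library is named, and the counts of genes and lists are given with and without it where it changes them. Lyz1, Sis and Reg3g were the named genes whose call in this comparison changed without it.

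**Figure D1:**
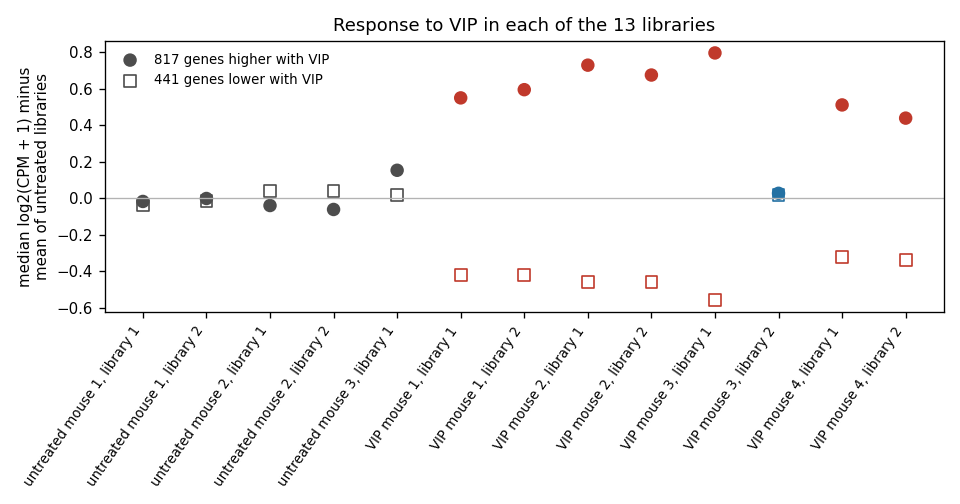
Median over genes of log2(CPM + 1) in each of the 13 libraries minus the mean of the 5 untreated libraries, for 817 genes called higher with VIP (filled circles, of 820, those that could also be tested with all libraries) and 441 called lower (open squares) in the fit that left out the second library of VIP-treated mouse 3. Untreated libraries are grey, VIP-treated libraries red and the library left out blue, and that library sits at 0.03 and 0.02 where the other 7 VIP-treated libraries reach 0.44 to 0.80 and −0.56 to −0.32.

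The genes in the plot of responses by library were chosen on the other libraries, so the red and grey points only describe that choice. The values of the library left out were not used, and in it 102 of the 817 genes lay above all 5 untreated libraries and 78 below all 5. In the other VIP-treated libraries 508 to 682 of these genes lay above all untreated ones. Mitochondrial transcripts made up 6.31% of the UMIs in this library, 5.04% to 6.83% in untreated libraries and 4.30% to 5.57% in the other VIP-treated libraries.

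Treatment with VIP raised more genes than it lowered. With the mouse as a block, edgeR's quasi-likelihood test called 474 of 12727 genes higher (3.72%) and 140 lower (1.1%) at a Benjamini-Hochberg adjusted p of 0.05 or less, with a median log2 fold change over all genes of −0.0041. Without the second library of VIP-treated mouse 3, 820 of 12684 genes were higher (6.46%) and 441 lower (3.48%), and 607 genes were called in both fits in the same direction. Without the first library of that culture, only the second stands for VIP-treated mouse 3. In that fit 0 genes, and so 0 members of each list, were called in edgeR, and 720 had an unadjusted p under 0.05. With mouse 3 left out altogether, 1668 genes were called. Without the untreated library of mouse 3, which leaves that mouse without a pair, 1076 genes were higher and 629 lower. The count was 99 genes without the replicate block, which ignores that untreated and treated cultures come from the same mice. In 717 genes (5.63%) all 4 VIP-treated samples lay above all 3 untreated ones, and in 519 (4.08%) all lay below. In whole cultures, more cells of a type and more RNA per cell cannot be told apart. Counts of list members below stand beside these shares of 3.72% and 1.1% over all genes. Adjusted p-values below are from this edgeR test with Benjamini-Hochberg adjustment over all genes.

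The largest rise among genes with a mean of at least 10 CPM was in Mucl3, a mucin-like gene, at 2.04, 1.99 and 0.858 CPM in untreated mice 1, 2 and 3 and 28.9, 23.2, 48.4 and 8.105 CPM in VIP-treated mice 1 to 4. This was the highest fold change of the named rises (log2 fold change 4.17, SE 0.28, edgeR adjusted p = 8.19e-07). The groups did not overlap, mouse 4 was the lowest of the treated samples, and the first library of VIP-treated mouse 3 alone stood at 79.6 CPM. Il33, a cytokine held in the nuclei of barrier epithelia, rose from 3.39, 2.79 and 2.003 CPM to 18.9, 20.2, 58.7 and 7.92 CPM (log2 fold change 3.31, SE 0.30, edgeR adjusted p = 1.7e-05), with mouse 3 the highest and mouse 4 the lowest of the treated samples. Enpp3, an ectonucleotidase that degrades extracellular ATP, rose from 2.04, 3.98 and 3.72 CPM to 26.3, 40.6, 13.4 and 23.6 CPM (log2 fold change 3.10, SE 0.26, edgeR adjusted p = 8.23e-06). Here mouse 3 was the lowest treated sample and all treated samples lay above the untreated ones. Ly6d, a surface protein of the Ly6 family, and Serpinb9b, a serine protease inhibitor, had log2 fold changes of 2.90 and 2.80 (edgeR adjusted p = 7.94e-07 and 2.92e-06), again without overlap between the groups.

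The largest fall was in Ces2a, a carboxylesterase that hydrolyses lipid esters and drugs, from 439, 429 and 970.4 CPM untreated to 139, 161, 243 and 191 CPM with VIP (log2 fold change −1.69, SE 0.11, edgeR adjusted p = 7.93e-07). Untreated mouse 3 was the highest sample and every treated sample lay below every untreated one. Slc5a4b, a sodium/glucose cotransporter family member, fell from 19.9, 20.5 and 75.5 CPM to 9.82, 11.7, 15.1 and 10.7 CPM (log2 fold change −1.47, SE 0.24, edgeR adjusted p = 0.00242), and here too untreated mouse 3 stood far above the other untreated samples. Prss12, a secreted serine protease, and Tmem117, a transmembrane protein, fell (log2 fold changes −1.36 and −1.29, edgeR adjusted p = 0.000299 and 0.000654). Ugt2b36, a glucuronosyltransferase, N4bp2l1 and Cyp2u1, a cytochrome P450, had log2 fold changes of −1.16, −1.14 and −1.12 (edgeR adjusted p = 0.000611, 0.00288 and 0.00601). For all of these genes the samples of the groups did not overlap.

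**Figure D2:**
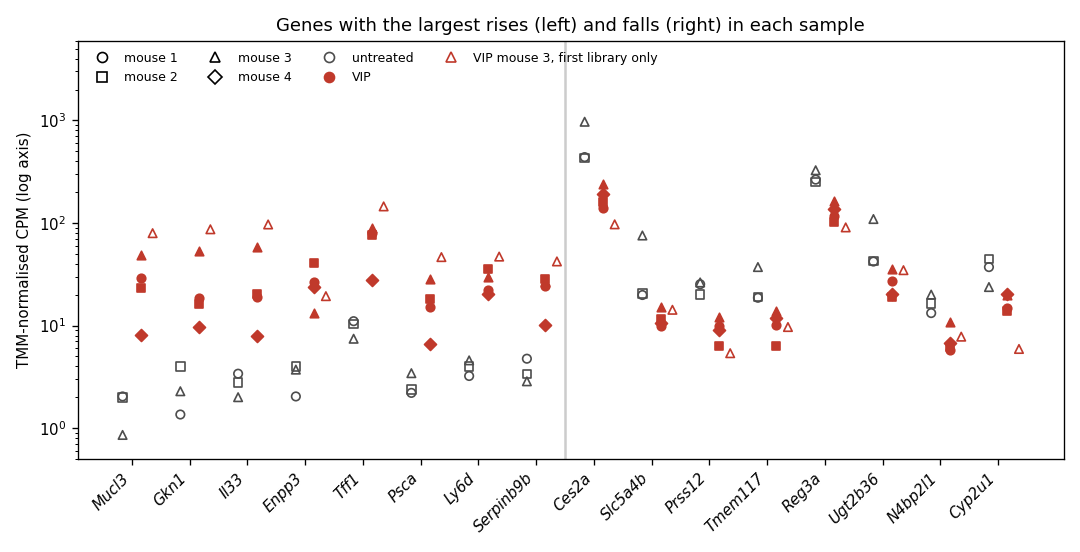
CPM after TMM normalization on a log axis for the 8 genes that rose most and the 8 that fell most, in each untreated (open grey) and VIP-treated (filled red) sample, with a marker shape for each mouse and open red triangles for the first library of VIP-treated mouse 3 alone. For all 16 genes the filled red and grey points do not overlap, and for Mucl3, Gkn1, Il33 and Tff1 mouse 4 is the lowest treated sample.

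Few genes of the receptor and its immediate cascade moved. Vipr1 (GRCm38 chromosome 9, 121642716 to 121672954) stood at 23.6, 29.3 and 28.3 CPM untreated and 23.9, 32.9, 27.4 and 21.4 CPM with VIP, with a log2 fold change of 0.050, SE 0.13, edgeR adjusted p = 0.902. The groups overlapped. Vipr2 and Adcyap1r1, which encode the other receptors for the peptide family, were at 0 or not in the table and could not be tested. Ramp1, a receptor activity-modifying protein, rose from 9.16, 10.6 and 22.03 CPM to 21.2, 17.5, 28.5 and 25.1 CPM (log2 fold change 0.75, SE 0.18, edgeR adjusted p = 0.026), and was higher in 3 of 3 mice although untreated mouse 3 overlapped the treated samples. It was the only called member of the receptor list, of which 2 of 6 could be tested. It lost the call without either library of VIP-treated mouse 1, without the second of VIP-treated mouse 2 or without the second of untreated mouse 2. The call was also lost with DESeq2, without the block and without mouse 1 or mouse 2. Of 21 tested genes for cAMP machinery (G protein subunits, adenylyl cyclases, protein kinase A subunits and phosphodiesterases) 0 were called in edgeR, or 1 without the second library of VIP-treated mouse 3, and Gnas was among those not called (log2 fold change −0.034, SE 0.09, edgeR adjusted p = 0.904).

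Genes that CREB is known to switch on rose in part. Of 32 tested members of the CREB list 10 rose and 0 fell, with a median log2 fold change of 0.27 beside −0.0041 over all genes, and the count was 11 without the second library of VIP-treated mouse 3 and 1 without the replicate block. Areg, which encodes the EGF receptor ligand amphiregulin, stood at 94.01, 86.2 and 54.4 CPM untreated and 187, 245, 102 and 164 CPM with VIP (log2 fold change 1.15, SE 0.12, edgeR adjusted p = 5.29e-05). Every treated sample lay above every untreated one, and within mouse 3 both values were lower than in mice 1 and 2. Id1, an inhibitor of basic helix-loop-helix factors, rose from 35.1, 47.6 and 16.9 CPM to 64.04, 79.8, 39.6 and 61.7 CPM (log2 fold change 0.91, SE 0.12, edgeR adjusted p = 0.000451) and the groups overlapped through mouse 3. Fos, a subunit of the transcription factor AP-1, rose from 17.3, 23.5 and 19.2 CPM to 39.3, 35.2, 44.1 and 25.4 CPM (log2 fold change 0.98, SE 0.15, edgeR adjusted p = 0.00146) without overlap. Other members that rose were Ereg (1.46), Dusp1 (1.04), Klf4 (0.89), Junb (0.63) and Egr1 (0.59), given as log2 fold changes. Crem, itself a CREB target that acts in feedback, was not called, at 4.58, 5.77 and 8.01 CPM untreated and 4.39, 7.74, 8.85 and 6.45 CPM with VIP (log2 fold change 0.19, SE 0.23, edgeR adjusted p = 0.771).

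Ligands of the EGF receptor were among the genes that rose. On the list of EGF family ligands and MAPK feedback genes 6 of 28 tested members rose and 0 fell (median log2 fold change 0.18), or 7 without the second library of VIP-treated mouse 3, 3 with DESeq2 and 1 without the block. They were the ligands Areg, Ereg, Hbegf (log2 fold change 0.71) and Btc (0.60), the ERK phosphatase Dusp6 and the p38 kinase isoform Mapk11. Dusp6 rose from 16.6, 21.7 and 16.9 CPM to 32.1, 33.3, 32.99 and 29.1 CPM (log2 fold change 0.83, SE 0.14, edgeR adjusted p = 0.00269) with no overlap. Mapk11, which encodes p38β, was a low gene at 1.19, 0.199 and 0.572 CPM untreated and 3.33, 4.27, 4.67 and 3.13 CPM with VIP (log2 fold change 2.52, SE 0.48, edgeR adjusted p = 0.00666). Mapk14, which encodes the main p38 kinase p38α, was not called (log2 fold change 0.19, SE 0.13, edgeR adjusted p = 0.558). For NF-kB feedback genes and epithelial chemokines 4 of 28 rose and 1 fell (median 0.20). The counts were 6 and 1 without the second library of VIP-treated mouse 3 and 10 and 1 without the untreated library of mouse 3. They were 1 and 0 with DESeq2 and 1 and 0 without the block. Cxcl16, a chemokine anchored in the membrane, rose from 23.8, 23.9 and 29.2 CPM to 70.9, 82.6, 66.9 and 54.2 CPM (log2 fold change 1.53, SE 0.13, edgeR adjusted p = 6.77e-06). The NF-kB inhibitor gene Tnip3 was a low gene, at 1.36, 0.597 and 0.858 CPM untreated and 4.91, 4.11, 2.57 and 2.21 CPM with VIP (log2 fold change 2.04, edgeR adjusted p = 0.00764). Ier3 had a log2 fold change of 0.90 (edgeR adjusted p = 0.0089) and Ccl20 of 0.68. Ccl25, the chemokine of the small intestine, fell by 0.37 on the log2 scale. Nfkbia, the classical feedback inhibitor, was not called (log2 fold change −0.0065, SE 0.11, edgeR adjusted p = 0.988), nor was Tnf, at 0.509, 2.79 and 1.43 CPM and 3.86, 1.74, 2.57 and 2.21 CPM (log2 fold change 0.81, SE 0.53, edgeR adjusted p = 0.505).

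The fetal-like and regenerative program had the highest median of the lists with at least 20 tested members. Of 38 tested members 29 rose and 0 fell, with a median log2 fold change of 1.39 beside −0.0041 over all genes. The list was 30 of 36 without the second library of VIP-treated mouse 3 (median 1.499), 25 of 38 with DESeq2, 18 without the replicate block, 25 where every sample had to reach 10 counts and 0 without the first library of VIP-treated mouse 3. In 27 members all VIP-treated samples lay above all untreated ones, where 5.63% of all tested genes did. Members low in untreated samples can pass the filter through their level with VIP, which shapes these shares. The list was also written with earlier results of these data known. Lgals3 (chromosome 14, 47367751 to 47386160), which encodes the glycan-binding protein galectin-3, stood at 128, 136 and 117 CPM untreated and 671, 951, 717 and 467 CPM with VIP (log2 fold change 2.60, SE 0.10, edgeR adjusted p = 1.78e-08). The lowest treated sample, mouse 4, lay far above the highest untreated one.

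The marker genes of the program rose together. Ly6a, which encodes the surface protein Sca-1, rose from 12.6, 17.3 and 13.4 CPM to 78.8, 92.1, 55.8 and 50.3 CPM (log2 fold change 2.40, SE 0.13, edgeR adjusted p = 1.59e-07). Clu, the extracellular chaperone clusterin that marks revival stem cells, rose from 17.5, 17.9 and 38.3 CPM to 79.3, 90.2, 96.4 and 45.9 CPM (log2 fold change 1.93, SE 0.16, edgeR adjusted p = 7.85e-06). In both genes all treated samples lay above all untreated ones. Anxa10, an annexin of gastric epithelium, rose from 16.3, 21.1 and 16.6 CPM to 103, 131, 133 and 62.6 CPM (log2 fold change 2.75, SE 0.12, edgeR adjusted p = 2.12e-08), and in the first library of VIP-treated mouse 3 alone it stood at 207 CPM. S100a6, a calcium-binding protein of proliferating and injured epithelium, rose from 131, 183 and 223 CPM to 919, 1240.3, 1081 and 714 CPM (log2 fold change 2.62, SE 0.11, edgeR adjusted p = 2.12e-08). Mouse 2 was the highest and mouse 4 the lowest treated sample. Other members that rose were Pmp22 (3.57), Il1rn (2.59), Krt20 (0.97) and Krt19 (0.49), given as log2 fold changes.

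**Figure D3:**
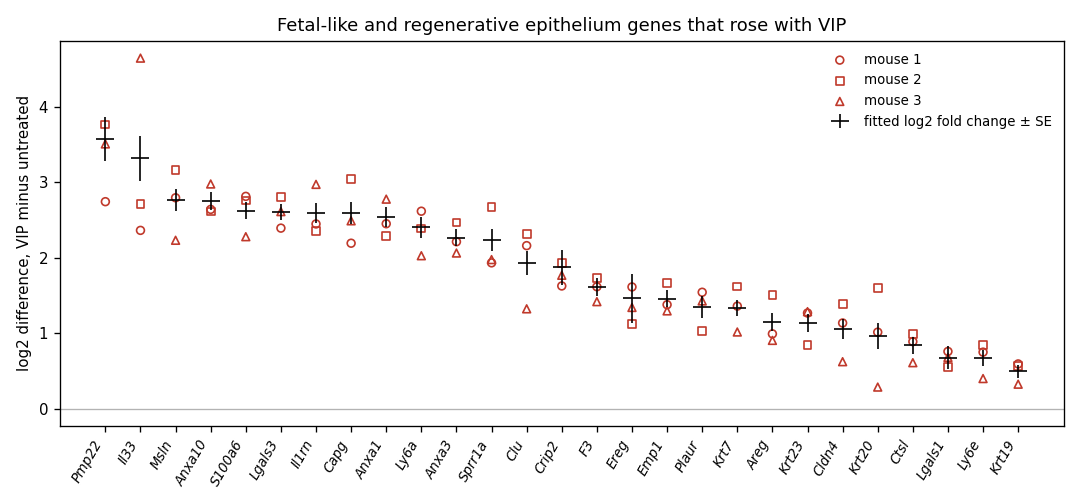
Log2 difference between the VIP-treated and the untreated sample of mouse 1 (circles), mouse 2 (squares) and mouse 3 (triangles, both libraries summed) for 27 of the 29 fetal-like and regenerative epithelium genes that rose, with the fitted log2 fold change and its SE in black. All points lie above 0, from the fitted 0.49 of Krt19 to 3.57 of Pmp22.

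In gene families that overlap this program, members rose and none of those tested fell at the threshold in edgeR. On the list of S100 proteins and annexins 15 of 20 tested members rose and 0 fell (median log2 fold change 0.88), or 16 without the second library of VIP-treated mouse 3 and 10 without the block. Anxa3 rose from 32.2, 31.5 and 36.3 CPM to 151, 175, 153 and 106 CPM (log2 fold change 2.26, SE 0.11, edgeR adjusted p = 6.02e-08), with mouse 4 the lowest treated sample and no overlap. On the list of YAP and TAZ targets 11 of 28 rose and 0 fell (median 0.78), 4 without the block. Anxa1, a regulator of inflammation and itself on that list, rose from 8.32, 12.1 and 14.02 CPM to 47.02, 60.8, 98.01 and 33.7 CPM (log2 fold change 2.54, SE 0.14, edgeR adjusted p = 1.17e-07). Msln, the surface protein mesothelin, rose from 23.4, 27.5 and 31.2 CPM to 164, 248, 148 and 95.4 CPM (log2 fold change 2.76, SE 0.15, edgeR adjusted p = 1.17e-07). The classical YAP target Ccn1 was not called, at 7.64, 11.2 and 9.44 CPM and 12.5, 7.74, 12.6 and 7.37 CPM (log2 fold change 0.20, SE 0.24, edgeR adjusted p = 0.754), nor was Yap1 itself (log2 fold change −0.088, SE 0.14, edgeR adjusted p = 0.827). Among the 11 genes that rose, Areg, Ereg, F3, Clu, Anxa1, Anxa3 and Msln are also on the fetal-like list.

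Some genes of the stomach and of Brunner's glands rose in jejunal organoids. Of 23 listed genes 10 could be tested, and 7 of those rose and 0 fell, or 4 without the block. Several were so low in untreated samples that they could be tested through their level with VIP, and with at least 10 counts required in every sample 3 rose, so the share of tested members that rose is shaped by the filter. Tff1, a trefoil peptide secreted with gastric mucus, rose from 11.03, 10.4 and 7.44 CPM to 79.6, 75.5, 89.6 and 27.6 CPM (log2 fold change 3.04, SE 0.15, edgeR adjusted p = 6.02e-08). Gkn1, a gastrokine made by gastric surface cells, rose from 1.36, 3.98 and 2.29 CPM to 18.8, 16.1, 53.4 and 9.58 CPM (log2 fold change 3.34, SE 0.33, edgeR adjusted p = 3.01e-05). Psca, a surface antigen of gastric epithelium, rose from 2.21, 2.39 and 3.43 CPM to 15.1, 18.3, 28.5 and 6.63 CPM (log2 fold change 2.91, SE 0.22, edgeR adjusted p = 2.8e-06). In all 3 genes the groups did not overlap, and mouse 3 was the highest and mouse 4 the lowest treated sample. The remaining members that rose were Mucl3, Anxa10, Gkn2 (log2 fold change 3.48) and Vsig1. The summed level of the list was 77.4 to 80.0 CPM untreated and 159.6 to 439.5 CPM with VIP, and the gastric genes Muc5ac, Sox2 and Atp4b were at 0 or not in the table. Of genes of the ileum and colon 2 of 12 tested rose and 1 fell. The counts were 4 of 13 and 2 without the second library of VIP-treated mouse 3 and 5 and 2 without the untreated library of mouse 3. They were 1 and 0 without the block. Clca4a, a low gene of the CLCA family, rose from 1.697, 2.19 and 0.858 CPM to 11.2, 15.5, 6.28 and 7.55 CPM (log2 fold change 2.77, SE 0.27, edgeR adjusted p = 3.25e-05). The ileal bile acid transporter Slc10a2 had a log2 fold change of 1.22 (edgeR adjusted p = 0.02). The water channel Aqp4 fell by 0.46 on the log2 scale (edgeR adjusted p = 0.0366). Aqp4 lost the call without any one library of mice 1 and 2 other than the first of untreated mouse 1.

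All called genes for intermediate filaments and the actin cytoskeleton rose. Keratins and other intermediate filament genes had 10 of 23 tested members higher and 0 lower (median 0.35). The count was 12 without the second library of VIP-treated mouse 3 and 2 without the block. Krt7, a keratin of simple ducts, rose from 284, 267 and 457 CPM to 728, 819, 924 and 565 CPM (log2 fold change 1.33, SE 0.11, edgeR adjusted p = 6.77e-06), and Krt23 rose from 35.3, 47.6 and 52.6 CPM to 85.4, 85.5, 129 and 75.7 CPM (log2 fold change 1.13, SE 0.11, edgeR adjusted p = 4.37e-05). Krt8 and Krt18, the main keratin pair of simple epithelium, rose by a log2 fold change of 0.52 and 0.49 (edgeR adjusted p = 0.00461 and 0.00698). The nuclear lamin Lmna had a log2 fold change of 0.82 (edgeR adjusted p = 0.00046). For actin cytoskeleton genes 14 of 50 rose and 0 fell (median 0.26). The count was 32 without the second library of VIP-treated mouse 3, 31 without the untreated library of mouse 3 and 3 without the block. Capg, which caps actin filaments, rose from 28.00, 22.7 and 22.03 CPM to 129, 189, 125 and 93.2 CPM (log2 fold change 2.59, SE 0.15, edgeR adjusted p = 1.8e-07). Gsn (gelsolin) rose from 33.3, 38.8 and 81.2 CPM to 92.1, 103, 157 and 84.4 CPM (log2 fold change 1.26, SE 0.12, edgeR adjusted p = 2.09e-05), and Tpm2 (a tropomyosin) from 0.849, 1.39 and 0.858 CPM to 7.89, 12.5, 5.63 and 6.08 CPM (log2 fold change 3.07, SE 0.32, edgeR adjusted p = 5.57e-05). Actb, often taken as a stable reference, rose from 3486, 3374 and 3647 CPM to 4947, 4965, 4375 and 4459.8 CPM (log2 fold change 0.44, SE 0.09, edgeR adjusted p = 0.0089).

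A few junction genes rose. Of 23 tested tight junction genes 4 rose and 0 fell (median 0.26). The rises numbered 9 without the second library of VIP-treated mouse 3, 8 without the untreated library of mouse 3, and 2 without any one of the second libraries of mice 1 and 2. They numbered 1 without the block. Cldn4, a sealing claudin, rose from 57.02, 53.6 and 81.5 CPM to 126, 141, 126 and 119.9 CPM (log2 fold change 1.05, SE 0.13, edgeR adjusted p = 0.000274). Cldn2, a claudin that forms cation and water pores, rose from 148, 113 and 173 CPM to 203, 159.7, 333 and 186 CPM (log2 fold change 0.63, SE 0.11, edgeR adjusted p = 0.00304), and the polarity gene Pard6b had a log2 fold change of 0.47 (edgeR adjusted p = 0.0403). Of 19 genes for laminins, integrins and basement membrane 4 rose and 0 fell (median 0.14), among them Lama5 (log2 fold change 0.91), Itgb4 (0.60, edgeR adjusted p = 0.00482) and Itga3 (0.60, edgeR adjusted p = 0.0114). The rises numbered 2 without the second library of untreated mouse 2, 1 with DESeq2 and 0 without the block. On the list of tissue factor and the plasminogen system 8 of 13 tested members rose and 1, the plasminogen receptor Plgrkt, fell (median 0.66), with 5 rising without the block. Without the second library of VIP-treated mouse 3, 9 of 14 rose and 1 fell. F3, which encodes tissue factor, the cell-surface trigger of coagulation, rose from 19.2, 20.9 and 24.6 CPM to 59.5, 70.3, 66.3 and 58.9 CPM (log2 fold change 1.61, SE 0.12, edgeR adjusted p = 2.26e-06). Plaur, the urokinase receptor, rose from 11.03, 17.1 and 16.6 CPM to 32.8, 35.4, 45.2 and 28.9 CPM (log2 fold change 1.34, SE 0.15, edgeR adjusted p = 8.45e-05), and the serpin Serpinb5 from 3.903, 4.38 and 2.57 CPM to 18.2, 23.5, 20.8 and 12.7 CPM (log2 fold change 2.48, SE 0.21, edgeR adjusted p = 8.52e-06). Anxa2, which assembles plasminogen activation at the cell surface, rose from 767, 706 and 691 CPM to 1456, 1687, 1232 and 1336 CPM (log2 fold change 1.005, SE 0.10, edgeR adjusted p = 2.62e-05).

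Because AP-1 subunits, CREB targets and YAP targets were among the genes that rose, the promoters of the called genes were searched for the corresponding motifs. RefSeq promoters on GRCm38.p6, from 250 bases before to 50 after a start site, were matched by symbol for 355 of the 474 higher and 106 of the 140 lower genes, and for 9286 of the genes tested. On either strand, TGANTCA (AP-1) was present in 10.9% of the 468 promoters of higher genes, 5.19% of those of lower genes, 5.14% of the 11837 promoters of all genes tested and 7.81% of all 32851 promoters in the table. In the 44 promoters of the fetal-like list the share was 20.5%, in the 62 of the xenobiotic list 9.68% and in the 34 of the CREB list 2.94%. The full cAMP response element TGACGTCA was present in 3.21% of promoters of higher genes and 3.09% of those of tested genes, and the shorter TGACG, which the full element contains, in 20.7% and 31.0%. The TEAD motif GGAATG was present in 15.6% and 12.1%. In promoters of the fetal-like list TGACG and GGAATG were each present in 20.5% as well, and TGACG in 58.8% of those of the CREB list. These shares describe letters in a window and were not tested.

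The 250 bases before the start site are shown for 3 genes that rose, F3 for a pair of AP-1 motifs and Areg and Mucl3 for a full cAMP response element, with the motif in capitals, 5′ to 3′ on the strand of the gene. They lie at chr3:121723287-121723536 on the plus strand for F3, chr5:91139349-91139598 on the plus strand for Areg and chr17:35643696-35643945 on the minus strand for Mucl3. The motifs begin 146 and 135 bases before the start site in F3, 61 before it in Areg and 47 before it in Mucl3.
F3: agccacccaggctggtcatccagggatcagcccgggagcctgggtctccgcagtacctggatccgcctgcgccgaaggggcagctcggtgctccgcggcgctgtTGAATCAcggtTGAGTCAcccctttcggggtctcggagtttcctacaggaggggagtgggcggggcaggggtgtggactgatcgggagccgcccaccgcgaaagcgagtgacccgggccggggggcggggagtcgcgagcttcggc
Areg: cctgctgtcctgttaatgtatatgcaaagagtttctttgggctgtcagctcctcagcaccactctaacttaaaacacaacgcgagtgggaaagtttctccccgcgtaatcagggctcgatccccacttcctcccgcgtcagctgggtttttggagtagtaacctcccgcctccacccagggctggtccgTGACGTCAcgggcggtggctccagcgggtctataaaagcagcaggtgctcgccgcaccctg
Mucl3: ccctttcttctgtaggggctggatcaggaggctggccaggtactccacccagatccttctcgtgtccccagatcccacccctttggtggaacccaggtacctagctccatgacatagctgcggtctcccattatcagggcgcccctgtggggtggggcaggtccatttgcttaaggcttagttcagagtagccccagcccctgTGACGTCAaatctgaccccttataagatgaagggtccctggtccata

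Goblet cell products rose, and those of other secretory cells mostly did not pass the test. Of 27 tested goblet genes 12 rose and 0 fell (median log2 fold change 0.42). They were 15 and 1 without the second library of VIP-treated mouse 3 and 3 without the block. Clca1, a secreted metalloprotease of goblet mucus, rose from 46.2, 52.6 and 57.8 CPM to 196, 239, 224 and 181 CPM (log2 fold change 2.08, SE 0.10, edgeR adjusted p = 5.63e-08). Zg16, a lectin that aggregates bacteria in mucus, rose from 116, 131 and 162 CPM to 406, 453, 432 and 366 CPM (log2 fold change 1.67, SE 0.10, edgeR adjusted p = 3.8e-07). In both the groups were well apart. Agr2, the isomerase needed to fold mucins, rose from 455, 385 and 732 CPM to 759.8, 677, 1138 and 814 CPM (log2 fold change 0.73, SE 0.08, edgeR adjusted p = 0.000162), with untreated mouse 3 inside the range of the treated samples. Muc2, the main gel-forming mucin, rose from 94.4, 141 and 50.1 CPM to 148, 174, 109 and 151 CPM (log2 fold change 0.66, SE 0.13, edgeR adjusted p = 0.00759), and here untreated mouse 2 lay above VIP-treated mouse 3. Tff3, the intestinal trefoil factor, rose from 1244, 1361 and 1566 CPM to 1931, 1957, 2072 and 2083 CPM (log2 fold change 0.52, SE 0.09, edgeR adjusted p = 0.00249) without overlap.

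**Figure D4:**
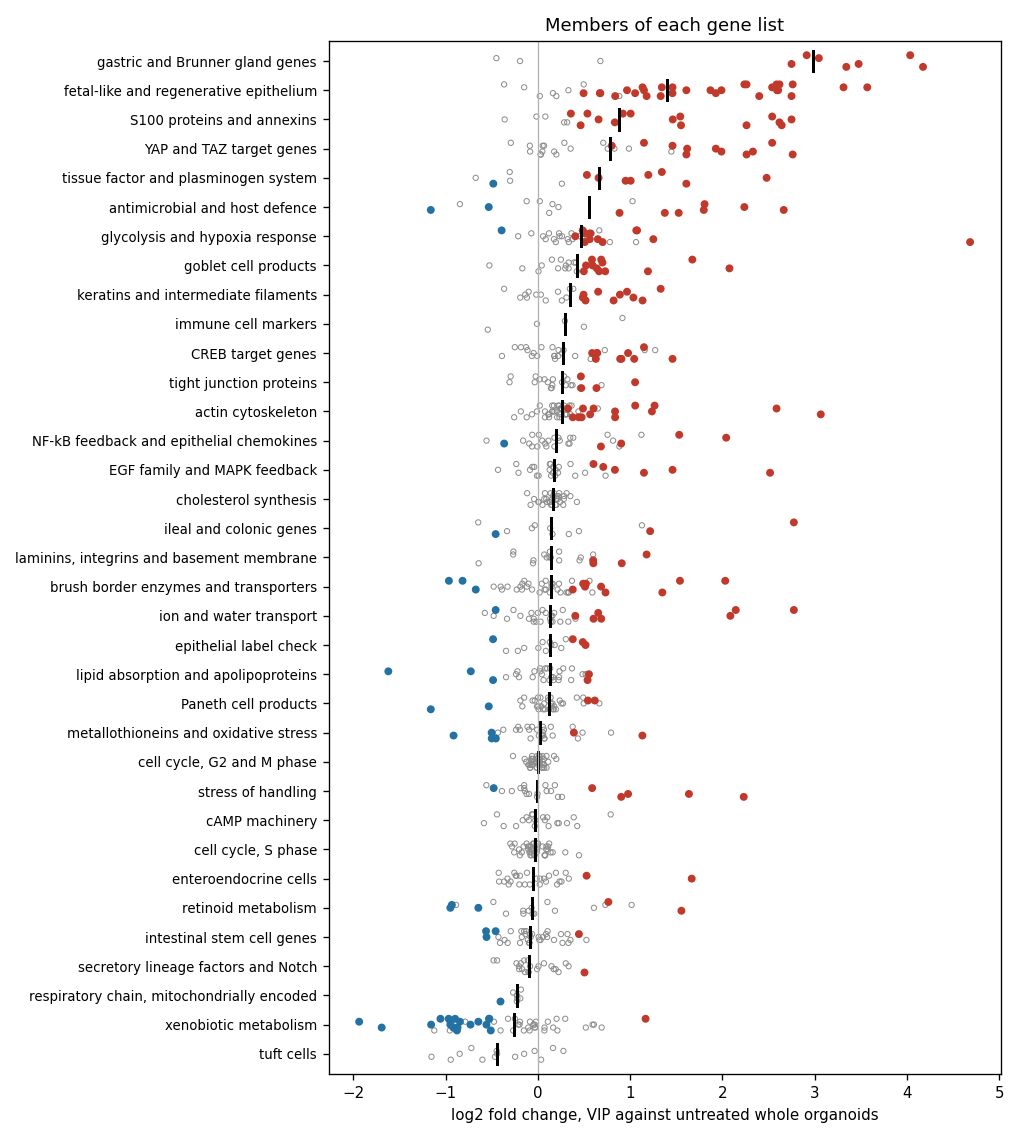
Log2 fold change (VIP against untreated) of every tested member of each gene list with at least 5 tested members. Filled red points rose and filled blue points fell at an adjusted p of 0.05 or less, open grey points did not pass, and black bars are list medians, from 2.98 for gastric and Brunner gland genes to −0.44 for tuft cells.

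Of the factors that specify secretory cells 1 of 23 tested was called. In edgeR 0 were called without either library of VIP-treated mouse 2, without the second of VIP-treated mouse 1 or without the first of untreated mouse 1 or 2. The count was also 0 with DESeq2, with library size only, without the block and without mouse 1 or mouse 2. Atoh1, the factor required for all secretory lineages, stood at 18.2, 17.9 and 41.8 CPM untreated and 23.9, 25.9, 61.3 and 38.5 CPM with VIP (log2 fold change 0.50, SE 0.12, edgeR adjusted p = 0.0324). It was higher in 3 of 3 mice, although untreated mouse 3 lay above the treated samples of mice 1, 2 and 4. Hes1, the Notch target that represses Atoh1, was not called (log2 fold change −0.14, SE 0.09, edgeR adjusted p = 0.508). Of 36 tested Paneth cell genes 2 rose and 2 fell (median 0.12). The counts were 8 and 2 without the second library of VIP-treated mouse 3, and 17 rose and 4 fell without the untreated library of mouse 3. They were 0 and 1 without the block. Lyz1, which encodes lysozyme, was not called, at 1272, 1096 and 3363 CPM and 1799, 1381, 2831 and 2672 CPM (log2 fold change 0.20, SE 0.12, edgeR adjusted p = 0.481), and was called without the VIP-treated library named above (log2 fold change 0.32, edgeR adjusted p = 0.0191). Reg4, a lectin of deep crypt secretory cells, and Pnliprp2, a pancreatic lipase relative, had log2 fold changes of 0.54 and 0.62 (edgeR adjusted p = 0.00391 and 0.00492). Reg3a, an antibacterial lectin, fell from 265, 252 and 327 CPM to 118, 101, 163 and 137 CPM (log2 fold change −1.16, SE 0.09, edgeR adjusted p = 6.77e-06), with no overlap. Defensin, Reg3 and Sprr2 genes have close copies in the genome, which makes their counts uncertain.

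Of 28 tested enteroendocrine genes 2 rose and 0 fell (median −0.05). They were 3 and 0 without the second library of VIP-treated mouse 3 and 4 and 0 without the untreated library of mouse 3. The counts were 1 and 0 without the block. Tm4sf4, a tetraspanin-like protein that is also found in other epithelial cells, rose from 222, 232 and 388 CPM to 833, 1135, 669.6 and 657 CPM (log2 fold change 1.67, SE 0.20, edgeR adjusted p = 0.000244), and the hormone gene Cck rose from 87.9, 105 and 65.5 CPM to 144, 140.1, 89.00 and 115 CPM (log2 fold change 0.53, SE 0.10, edgeR adjusted p = 0.00686). Chga, the granule protein of enteroendocrine cells, and Neurod1, their differentiation factor, were not called (log2 fold change −0.088, SE 0.11, edgeR adjusted p = 0.764 for Chga, and log2 fold change −0.24, SE 0.22, edgeR adjusted p = 0.657 for Neurod1). Of 14 tested tuft cell genes 0 were called in edgeR, also without the second library of VIP-treated mouse 3, with a median log2 fold change of −0.44. The tuft cell marker Dclk1 stood at 3.903, 4.18 and 2.86 CPM untreated and 2.28, 1.896, 3.22 and 1.84 CPM with VIP (log2 fold change −0.60, SE 0.34, edgeR adjusted p = 0.428).

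Host defence genes moved in both directions. Of 16 tested members 7 rose and 2 fell (median 0.55). The counts were 8 and 3 without the second library of VIP-treated mouse 3. The rises numbered 11 without the untreated library of mouse 3 and 4 without the block. Wfdc2, a secreted protease inhibitor with antibacterial activity, rose from 4.24, 6.57 and 7.15 CPM to 34.9, 46.6, 29.1 and 25.2 CPM (log2 fold change 2.66, SE 0.19, edgeR adjusted p = 2.26e-06). Sprr1a, a cross-linked envelope protein of stressed epithelium, rose from 28.2, 20.1 and 10.6 CPM to 108, 130.2, 42.6 and 79.6 CPM (log2 fold change 2.24, SE 0.15, edgeR adjusted p = 8.19e-07). The peroxide-generating oxidase Duox2 and its maturation factor Duoxa2 had log2 fold changes of 1.38 and 1.798. Reg3b and Reg3a fell, and Reg3g, the closely related lectin, was not called, at 396, 408 and 1459.8 CPM untreated and 541, 509, 1196 and 607 CPM with VIP (log2 fold change 0.16, SE 0.12, edgeR adjusted p = 0.594). It was called without the second library of VIP-treated mouse 3 (log2 fold change 0.33, edgeR adjusted p = 0.0115).

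Genes for ion and water transport, the process VIP is best known for, had 7 of 32 tested members higher and 1 lower (median 0.14). The counts were 13 and 6 without the untreated library of mouse 3, 7 and 2 without the second library of VIP-treated mouse 3 and 3 rising without the block. Without any one library of mice 1 and 2 except the first of untreated mouse 1 none fell in edgeR (0 called lower). Car2, a cytosolic carbonic anhydrase, rose from 5.600, 3.78 and 6.87 CPM to 28.4, 23.4, 17.9 and 10.5 CPM (log2 fold change 2.14, SE 0.22, edgeR adjusted p = 5.67e-05). The lowest treated sample was mouse 4. Guca2a, the precursor of guanylin, which opens CFTR through cGMP, rose from 466, 512 and 802 CPM to 766, 885, 1175 and 1092 CPM (log2 fold change 0.69, SE 0.09, edgeR adjusted p = 0.00032), and the calcium-activated chloride channel Ano1 had a log2 fold change of 2.09. Cftr itself was not called, at 101, 130.0 and 46.1 CPM untreated and 81.6, 89.6, 83.8 and 79.02 CPM with VIP (log2 fold change −0.045, SE 0.19, edgeR adjusted p = 0.944). Within mice it was lower with VIP in mice 1 and 2 and higher in mouse 3.

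Absorptive genes changed in both directions, and genes for detoxification mostly fell where they passed. Of 42 tested brush border enzymes and transporters 9 rose and 3 fell (median 0.14). They were 12 and 5 without the second library of VIP-treated mouse 3, 18 and 5 without the untreated library of mouse 3 and 0 and 1 without the block. With DESeq2 they were 2 and 2. The rises numbered 5 and 4 without the first or the second library of VIP-treated mouse 1, and 3 without the second library of VIP-treated or of untreated mouse 2. Alpi, intestinal alkaline phosphatase, rose from 147, 113 and 224 CPM to 451, 467, 287 and 292 CPM (log2 fold change 1.35, SE 0.22, edgeR adjusted p = 0.00258). Slc40a1, the iron exporter ferroportin, rose from 6.11, 4.38 and 2.57 CPM to 22.6, 27.3, 4.18 and 21.4 CPM (log2 fold change 2.03, SE 0.26, edgeR adjusted p = 0.000374), and Slc28a2, a nucleoside transporter, from 6.11, 3.98 and 3.72 CPM to 14.6, 17.7, 8.05 and 14.2 CPM (log2 fold change 1.54, SE 0.24, edgeR adjusted p = 0.00179). For Slc40a1 mouse 3 was far below the other treated samples. Treh, which splits trehalose, fell from 44.6, 48.2 and 46.3 CPM to 20.2, 24.8, 26.7 and 27.1 CPM (log2 fold change −0.96, SE 0.12, edgeR adjusted p = 0.000338). Sis, sucrase-isomaltase, was not called (log2 fold change −0.17, SE 0.11, edgeR adjusted p = 0.512), but was called lower without the second library of VIP-treated mouse 3 (log2 fold change −0.53, edgeR adjusted p = 0.00453).

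For lipid absorption and apolipoproteins 2 of 31 tested members rose and 3 fell (median 0.13). The counts were 8 and 3 without the second library of VIP-treated mouse 3 and 11 and 3 without the untreated library of mouse 3. They were 0 and 0 without the block. Fabp1, the fatty acid-binding protein of enterocytes, fell from 8235, 8571 and 6174 CPM to 5355, 5789, 5113 and 5612 CPM (log2 fold change −0.49, SE 0.09, edgeR adjusted p = 0.00597), with no overlap. Apoa2, an apolipoprotein of HDL, fell from 10.2, 11.9 and 27.5 CPM to 3.33, 4.42, 8.05 and 4.05 CPM (log2 fold change −1.62, SE 0.20, edgeR adjusted p = 0.000292), and Slc27a2, an acyl-CoA synthetase, from 124, 123 and 212 CPM to 90.9, 71.1, 110.1 and 101 CPM (log2 fold change −0.73, SE 0.11, edgeR adjusted p = 0.00132). Apob and Agpat2 rose (log2 fold changes 0.54 and 0.55). Apoa4, a marker of villus-tip enterocytes, was not called (log2 fold change 0.10, SE 0.15, edgeR adjusted p = 0.823).

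On the list of xenobiotic metabolism 18 of 50 tested members fell and 1 rose (median log2 fold change −0.26 beside −0.0041 over all genes), where 1.1% of all genes fell. The count was 20 falling and 4 rising without the second library of VIP-treated mouse 3, 21 and 9 without the untreated library of mouse 3, 11 falling with DESeq2 and 3 falling without the block. The members that fell included the cytochromes Cyp2c29 (−1.06), Cyp2c66 (−0.73) and Cyp2j6 (−0.92), the esterases Ces1e (−0.85) and Ces1f (−0.90), the glutathione transferases Gstm1 (−0.88) and Gstm3 (−0.87) and the nuclear receptor Nr1i3 (−0.53), given as log2 fold changes. Cyp2c68 fell from 44.6, 49.98 and 63.2 CPM to 23.7, 23.4, 33.96 and 24.9 CPM (log2 fold change −0.97, SE 0.11, edgeR adjusted p = 0.000189) and Adh1, an alcohol dehydrogenase, from 1449, 1507 and 1596 CPM to 979, 1017, 913 and 1007 CPM (log2 fold change −0.65, SE 0.09, edgeR adjusted p = 0.00058), both without overlap. Several Cyp2c, Ces and Gstm genes have close paralogs that share sequence, so their counts are uncertain. Gsta4, which detoxifies lipid peroxidation products, rose (1.17). Cyp3a11, the main inducible P450 of this tissue, was not called, at 109, 84.6 and 463 CPM and 93.2, 85.8, 243 and 92.3 CPM (log2 fold change −0.41, SE 0.14, edgeR adjusted p = 0.163), and mouse 3 stood above all other samples in both groups.

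Of 19 tested genes of retinoid metabolism 2 rose and 3 fell (median −0.07), or 2 and 5 without the second library of VIP-treated mouse 3. The counts were 0 and 1 without the block. Rdh7, a retinol dehydrogenase, fell from 57.4, 46.99 and 76.4 CPM to 27.7, 28.8, 37.3 and 30.4 CPM (log2 fold change −0.93, SE 0.11, edgeR adjusted p = 0.000263), and Aldh1a1, which makes retinoic acid, fell from 107, 134 and 213 CPM to 62.5, 84.7, 80.3 and 65.6 CPM (log2 fold change −0.95, SE 0.13, edgeR adjusted p = 0.000689). The third was Adh1, which is also on the xenobiotic list. Rdh10, another retinol dehydrogenase, rose (log2 fold change 0.76), and Rbp2, the retinol-binding protein of enterocytes, was not called (log2 fold change −0.35, SE 0.18, edgeR adjusted p = 0.363).

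Of 35 tested intestinal stem cell genes 1 rose and 3 fell (median −0.09). The counts were 4 and 4 without the second library of VIP-treated mouse 3, 2 and 7 without the untreated library of mouse 3, 0 and 1 without the second library of VIP-treated mouse 2 and 0 falling without the second library of untreated mouse 2. They were 0 and 1 with DESeq2 and 0 and 0 without the block. Lgr5, the R-spondin receptor that marks stem cells, stood at 100.1, 85.6 and 45.2 CPM untreated and 116, 93.2, 64.5 and 99.5 CPM with VIP and was not called, though higher in 3 of 3 mice (log2 fold change 0.27, SE 0.11, edgeR adjusted p = 0.22). Olfm4, the other widely used marker, was not called (log2 fold change −0.11, SE 0.11, edgeR adjusted p = 0.685). Igfbp4, a binding protein for insulin-like growth factors, rose by a log2 fold change of 0.44, and Nrn1 and Pdgfa fell by 0.56 and 0.56 on the log2 scale (edgeR adjusted p = 0.0229, 0.0143 and 0.0148). Of 40 G2 and M phase genes and 45 S phase genes 0 and 0 were called in edgeR (1 of the G2 and M phase genes fell without the second library of VIP-treated mouse 3, and 1 and 2 without the untreated library of mouse 3), with medians of −0.0029 and −0.036. Mki67 stood at 219, 236 and 99.3 CPM untreated and 195, 230.4, 136 and 169.8 CPM with VIP (log2 fold change 0.068, SE 0.11, edgeR adjusted p = 0.84), and Pcna was not called either (log2 fold change −0.0086, SE 0.12, edgeR adjusted p = 0.986).

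Some genes for glycolysis rose, and cholesterol synthesis genes did not pass the test. Of 34 tested genes for glycolysis and the hypoxia response 12 rose and 1 fell (median 0.47). The rises numbered 7 without the second library of VIP-treated mouse 2 and 1 without the block. Ldha, lactate dehydrogenase, rose from 3245, 2556 and 1622 CPM to 3922, 3741, 2517 and 4026 CPM (log2 fold change 0.49, SE 0.09, edgeR adjusted p = 0.00613), Slc2a1, the glucose transporter GLUT1, from 53.1, 44.00 and 32.3 CPM to 79.5, 76.6, 53.8 and 75.7 CPM (log2 fold change 0.70, SE 0.10, edgeR adjusted p = 0.00136) and the oxygen sensor Egln3 from 99.95, 60.3 and 17.7 CPM to 136, 170.0, 48.1 and 148 CPM (log2 fold change 1.07, SE 0.17, edgeR adjusted p = 0.00229). Mouse 3 was below mice 1 and 2 in both groups for all 3 genes. Hk1, a hexokinase, rose from 12.05, 13.7 and 2.86 CPM to 22.1, 33.5, 12.7 and 25.4 CPM (log2 fold change 1.25, SE 0.20, edgeR adjusted p = 0.00189). Of 33 genes for cholesterol synthesis 0 were called in edgeR, and 3 rose without the second library of VIP-treated mouse 3 and 8 without the untreated library of mouse 3, with 30 of 33 log2 fold changes above 0 and a median of 0.16.

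Of 30 genes for metallothioneins, metal transport and oxidative stress 2 rose and 4 fell (median 0.03). The counts were 3 and 5 without the second library of VIP-treated mouse 3 and 5 and 5 without the untreated library of mouse 3. They were 1 and 0 without the block. The metallothionein Mt1 fell from 2392, 2437 and 3073 CPM to 1791, 1541, 2290.1 and 1845 CPM (log2 fold change −0.50, SE 0.09, edgeR adjusted p = 0.00365) and Mt2 from 962, 1070.5 and 1239 CPM to 516, 425, 867 and 539.9 CPM (log2 fold change −0.91, SE 0.12, edgeR adjusted p = 0.000635), both without overlap, while the zinc importer Slc39a4 rose from 89.4, 74.7 and 93.3 CPM to 198, 223, 147 and 191 CPM (log2 fold change 1.13, SE 0.14, edgeR adjusted p = 0.000253). Of 8 tested mitochondrially encoded respiratory chain genes 1, mt-Nd6, fell (log2 fold change −0.41, SE 0.10, edgeR adjusted p = 0.0367), 4 fell without the second library of VIP-treated mouse 3 or without the untreated library of mouse 3, 0 without any one of 5 other libraries, and all 8 had log2 fold changes below 0 (median −0.23). Genes that respond to tissue handling had 5 of 23 tested members higher and 1 lower (median −0.0048). They were 6 and 3 without the second library of VIP-treated mouse 3 or without the untreated library of mouse 3. With DESeq2 they were 2 and 0, and without the block 1 and 0. The heat shock genes Hspa1a (1.19, 0.796 and 0.572 CPM and 4.91, 3.002, 4.99 and 3.87 CPM) and Hspa1b (3.73, 4.98 and 2.86 CPM and 12.1, 10.6, 14.6 and 4.605 CPM) had log2 fold changes of 2.23 and 1.64 (edgeR adjusted p = 0.0042 and 0.00179), beside Fos, Egr1 and Ier3. Reads of Hspa1a and Hspa1b can be shared between these near-identical copies. The part of handling in the rise of Fos, Egr1 and Ier3 was not tested.

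To see in which genes whole organoids responded differently from stem and progenitor cells, the response was set against that of Lgr5-EGFP+ cells sorted from VIP-treated and untreated organoids of 4 reporter mice (8 samples), as an interaction in 1 edgeR model of 15 samples. Of 10186 genes 15 differed (0.147%), 13 of them with the higher log2 fold change in whole organoids, and 636 had an unadjusted p under 0.05. Without the second library of VIP-treated mouse 3, 27 differed, and without the replicate block 0 did, with 413 at an unadjusted p under 0.05. The mice of the 2 experiments differ, and the sorted samples held 575242 to 1104126 UMIs, fewer than the whole organoids.

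Lgals3 stood at 12.5, 49.2, 24.3 and 79.5 CPM in untreated sorted cells of 4 mice and 32.02, 65.4, 29.1 and 68.8 CPM with VIP. The joint fit gave log2 fold changes of 2.59 in whole organoids and 0.31 in sorted cells, a difference of 2.29 (SE 0.27, edgeR adjusted p = 0.000262). The groups of sorted cells overlapped, and 3 of their 4 mice were higher with VIP. Zg16 stood at 23.2, 37.9, 24.3 and 90.6 CPM in untreated sorted cells of 4 mice and 7.004, 27.7, 7.27 and 87.7 CPM with VIP, and had log2 fold changes of 1.66 in whole organoids and −0.56 in sorted cells, a difference of 2.22 (SE 0.30, edgeR adjusted p = 0.000871). Fcgbp, which encodes a mucus protein that binds the mucin gel, rose in whole organoids from 247, 291 and 92.97 CPM to 335, 416, 214 and 328 CPM (log2 fold change 0.70, SE 0.13, edgeR adjusted p = 0.00492) and stood at 116, 218, 109.5 and 194 CPM in untreated sorted cells of 4 mice and 63.03, 91.1, 61.8 and 105 CPM with VIP. Every sorted sample was lower with VIP than without it in the same mouse, and the joint fit gave log2 fold changes of 0.69 in whole organoids and −0.98 in sorted cells, a difference of 1.67 (SE 0.22, edgeR adjusted p = 0.000598). The sorted cells alone passed in that fit for Fcgbp (edgeR adjusted p = 0.0221) and not for Zg16 (edgeR adjusted p = 0.714). Krt7 had log2 fold changes of 1.32 in whole organoids and 0.17 in sorted cells, a difference of 1.15 (SE 0.18, edgeR adjusted p = 0.00524). Sprr2a3, a proline-rich envelope protein, rose in whole organoids from 76.03, 50.2 and 14.02 CPM to 179, 204, 77.7 and 127 CPM (log2 fold change 1.81, SE 0.17, edgeR adjusted p = 2.09e-05) and had log2 fold changes of 1.81 in whole organoids and −0.013 in sorted cells, a difference of 1.82 (SE 0.31, edgeR adjusted p = 0.012). The goblet genes Tff3 and Guca2a also differed, by 1.12 and 1.01 (edgeR adjusted p = 0.0144 and 0.0144). So 4 of the 24 goblet genes tested in this model differed, all with the higher log2 fold change in whole organoids. For Tff3 the joint fit gave 0.51 in whole organoids and −0.61 in sorted cells, neither called alone (edgeR adjusted p = 0.0534 and 0.107). The others with the higher log2 fold change in whole organoids were Anxa13, S100a16, Emp1, Rflnb, Mboat1 and Ankrd37, with differences of 0.99 to 1.67 on the log2 scale. Reg3a and the defensin Defa29 differed the other way, by −1.97 and −2.81 (edgeR adjusted p = 0.0423 and 0.0357). For Defa29 this rested on sorted mice 1, 2 and 3, since mouse 4 had 9.25 CPM untreated and 6.88 CPM with VIP, and its copies are near-identical. S100a6 rose in both compartments of the joint fit, with log2 fold changes of 2.61 in whole organoids and 1.68 in sorted cells (difference 0.93, edgeR adjusted p = 0.141). Without the second library of VIP-treated mouse 3 the difference passed, at 1.15, edgeR adjusted p = 0.00947. It then also passed for Areg (1.64, edgeR adjusted p = 0.026), Agr2 (1.02, edgeR adjusted p = 0.0335) and Anxa2 (0.86, edgeR adjusted p = 0.026), which did not pass with all libraries.

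**Figure D5:**
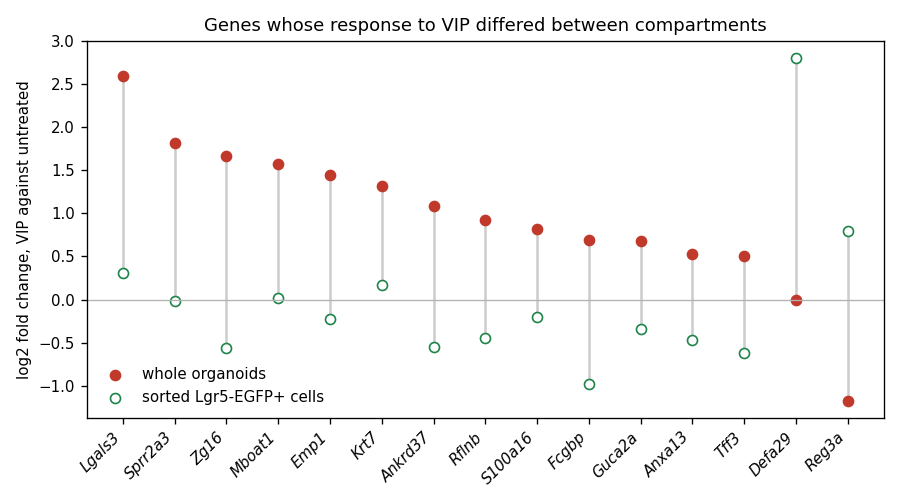
Log2 fold change with VIP in whole organoids (filled red) and in sorted Lgr5-EGFP+ cells (open green), from the joint fit, for the 15 genes whose response differed at an adjusted p of 0.05 or less. For 13 genes the red point is the higher one, and for Defa29 and Reg3a the lower one.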

How the data were processed

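The authors barcoded samples during 3′ reverse transcription, aligned reads to GRCm38 with GENCODE M25 and counted unique molecular identifiers (UMIs) with the Drop-seq pipeline 1.0. Their deposited tables hold UMI counts that are not normalized (27407 genes). Counts are limited by capture, and UMIs of near-identical genes cannot be assigned with certainty.

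Technical libraries of a culture were summed. Samples were paired by organoid line, since equal numbers in the labels name the same line. Deviations from the group means, correlated across genes, gave r of 0.27 to 0.63 within a line and −0.54 to 0.33 between lines. In R 4.3.3 with edgeR 4.0.16, counts were TMM-normalized, filtered by filterByExpr and tested by the quasi-likelihood test with mouse as a block, Benjamini-Hochberg adjusted, threshold 0.05. The study's methods use DESeq2 with the mouse in the design, run here (1.42.0) as an alternative. Mouse 4 adds nothing to the fold changes of the blocked fit. The test was also run on simulated counts, and the outcome is not given here. CPM are UMIs per 1000000, with library totals scaled by TMM factors except in summed levels of lists and for Xist and Y-linked genes. The chi-square between libraries also used unscaled totals. Technical libraries of a mouse are not replicates, and n is the number of mice.

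The 38 gene lists, the comparisons and the rule for naming genes were chosen with earlier results of these data known. Named are fixed anchors of each list, up to 3 members of each list with the smallest p among those called, the 8 largest rises and falls (all 3 paired mice in the same direction, mean of at least 10 CPM) and the 5 smallest p of the interaction. Other genes were chosen after their values were seen, from members called, and are given as log2 fold changes of the same test. Alternatives were DESeq2, RLE factors, library size, other filters, no replicate block, single libraries or mice left out, first libraries and no mitochondrially encoded genes. Gene positions are from GENCODE M21 on GRCm38, which held 96.9% of the symbols. The irradiation experiment was not used. Some genes of the lists enter the counts and are not reported here by name.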

Additional observations from a re-analysis of the deposited data

Results flagged for a closer look

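In 6 of 119 named genes tested VIP-treated mouse 3, whose sample includes the library that stood apart, lay far from the other 3 VIP-treated samples. The gap to the nearest sample, divided by the range of the 4 samples, was above Dixon's 95% critical value for 4 samples. Chance exceeds that value in about 1 in 20 groups, counting an extreme in any of the 4 samples. By that share about as many genes would be expected over all mice together. All 6 found here were extreme in mouse 3, but the genes share the same 4 samples and are not independent. Mouse 3 was the highest in Cyp3a11 (0.953), Lmna (0.873), Cyp2c68 (0.860) and Reg3g (0.856), and the lowest in Slc2a1 (0.853) and mt-Nd6 (0.849). In the first library of VIP-treated mouse 3 alone, Cyp3a11, Lmna, Reg3g and Cyp2c68 stood at 341, 397, 1705 and 23.7 CPM. With both libraries they stood at 243, 299, 1196 and 34.0 CPM. Slc2a1 stood at 53.8 CPM either way, and mt-Nd6 at 76.3 CPM in the first library and 94.5 CPM with both. The untreated sample of mouse 3 was the extreme one of its group in the same direction for Cyp3a11, Cyp2c68, Reg3g, Slc2a1 and mt-Nd6, and not for Lmna. The cause was not tested.

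The response to VIP differed between whole organoids and sorted Lgr5-EGFP+ cells, by the interaction term in edgeR, in 8 named genes. The log2 difference, whole organoids minus sorted cells, was 2.29 for Lgals3, 2.22 for Zg16, 1.82 for Sprr2a3, 1.67 for Fcgbp, 1.15 for Krt7, 1.12 for Tff3 and 1.01 for Guca2a, and −1.97 for Reg3a. The mice of both experiments differ, and without the replicate block none of the genes tested passed (0 called, 413 at an unadjusted p under 0.05).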

How the results depend on the processing

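The number of genes called, 614, was 300 with DESeq2 (240 higher, 60 lower), 979 with all genes with any count, 99 without the replicate block, 60 without both the block and the second library of VIP-treated mouse 3, and 0 to 1705 when a mouse or a library was left out (1668 without mouse 3, 1705 without its untreated library, 0 without the first library of its VIP-treated culture, 1261 without the second, 377 and 363 without mice 1 and 2). Other settings gave 501 to 881. The interaction, 15 genes, gave 9 with library size only, 57 with all genes with any count, 7 with at least 10 counts in every sample, 0 without the replicate block, and 4 to 41 when a mouse or a library was left out. Without the block 59 of the named genes stayed on the same side of the threshold in the same direction, 60 lost the call and 5 changed sign, and with DESeq2 109 stayed and 14 lost it, counting the 5 interaction values.

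The named genes that changed sign were not called in the full data. The log2 fold changes were −0.0033 for Gata4 with DESeq2, −0.0011 for Gata4 with RLE factors, −1.5e-05 for Gata4 without mitochondrially encoded genes, 0.00091 for Nfkbia with library size only and 0.00084 for Nfkbia with all genes with any count. Without the replicate block they were −0.032 for Vipr1, −0.079 for Reg3g, −0.019 for Mki67, 0.0073 for Pcna and −0.023 for Gata4. Also without the second library of VIP-treated mouse 3 they were 0.015 for Gnas, −0.11 for Mki67, 0.019 for Pcna and −0.027 for Gata4, and with first libraries only −0.012 for Vipr1, 0.091 for Gnas, 0.19 for Olfm4, −0.29 for Mki67, 0.039 for Pcna and 0.0053 for Nfkbia. When a mouse or a library was left out, the values ranged over −0.14 to 0.41 for Apoa4, −0.070 to 0.56 for Ccn1, −0.43 to 0.23 for Cftr, −0.16 to 0.049 for Chga, −0.14 to 0.36 for Crem, −0.11 to 0.13 for Gata4, −0.089 to 0.058 for Gnas, −0.097 to 0.42 for Lyz1, −0.11 to 0.26 for Mki67, −0.12 to 0.15 for Nfkbia, −0.34 to 0.011 for Olfm4, −0.12 to 0.16 for Pcna, −0.63 to 0.027 for Rbp2, −0.29 to 0.38 for Reg3g, −0.53 to 0.11 for Sis, −0.023 to 1.87 for Tnf, −0.048 to 0.13 for Vipr1 and −0.22 to 0.066 for Yap1. The causes were not tested. With 3 paired mice, 1 of them with a pair of discordant VIP libraries, these counts of genes carry little precision, and an exact sign-flip permutation test in 3 mice has a smallest two-sided p of 0.25.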

Other observations

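The organoid line of mouse 3 differed from those of mice 1 and 2 before any treatment. Summed Paneth cell products stood at 34641 CPM in untreated mouse 3 and at 18970 and 17959 CPM in untreated mice 1 and 2. Host defence genes summed to 8155 CPM against 4384 and 4367 CPM, and xenobiotic metabolism genes to 16428 CPM against 8723 and 8834 CPM. Genes for glycolysis and the hypoxia response were lower, at 6904 CPM against 14013 and 12051 CPM. With VIP, the sample of mouse 3 stood at 29189 CPM for Paneth cell products, 8914 CPM for xenobiotic metabolism and 9397 CPM for glycolysis and hypoxia, and mouse 4, which has no untreated partner, at 28902, 7670 and 14423 CPM. Mouse 3 is the only line with a female pattern of Xist and Y-linked genes among the 3 untreated samples, so line and sex cannot be told apart, and its untreated culture has 1 library.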
